A study of Mus musculus with 15 samples.

Results

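Interferon-stimulated genes were followed in mouse liver as a fixed list of 37 gene symbols, each looked up by name in the deposited count files. All 37 were found among the 23420 genes of the files, and all 37 passed the filter on low counts that left 12193 genes for testing. The list was written down by name and not by any value in these libraries, but it was drawn up when earlier results of the series were known. PolyA RNA was sequenced from pulverized tissue of the left lobe of the liver, taken from male mice of the inbred strain C57Bl/6J. The diet was either the base diet (BD, 4% of it fat), the high-fat diet (HFD, 31% fat) or a diet equally rich in fat, 31%, and short of methionine, choline and folate (MCD), which is widely used to produce fatty, inflamed liver in mice. Every library of the 3 diets, the BD libraries included, came from a vehicle-treated mouse (5% of an emulsifier, written Alkmauls El-620 in the labels, in saline) and was taken 24 h after that treatment, and there were 5 libraries per diet. The sources used here do not give the age of the mice or the length of feeding. Nothing in the labels says that each library came from its own mouse, so the p-values measure the spread between these libraries, which may in part be technical.

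Interferons are secreted proteins that warn neighbouring cells of infection or of misplaced nucleic acid. Type I and type III interferons act through receptors whose signal assembles a complex with STAT2 and IRF9, which binds the interferon-stimulated response element (ISRE) in target promoters, while interferon gamma acts mainly through the gamma-activated site (GAS). The induced genes include sensors of viral RNA, transcription factors that feed back on the response, antiviral effectors, GTPases that attack membranes around intracellular microbes, and the parts of the machinery that loads peptides on class I molecules. In liver, hepatocytes, Kupffer cells and other resident cells can all express them.

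The promoter stretches below are shown because they carry the motif matches that many of the 37 genes share, and they come from genes of different roles that did and did not change with diet. Promoter windows from RefSeq on GRCm38.p6, reaching from 250 bases before to 50 bases after a gene start, were available for 29 of the 37 genes, in 33 windows. Each stretch is written 5′ to 3′ in the direction of the gene, ends before the annotated start, and has the matches to the ISRE (GAAA, any 2 bases, then GAAA, searched on both strands) and to TTCNNNGAA (GAS, which reads the same on both strands) in capitals.
Oas1a, chr5:120907526-120907775, minus strand: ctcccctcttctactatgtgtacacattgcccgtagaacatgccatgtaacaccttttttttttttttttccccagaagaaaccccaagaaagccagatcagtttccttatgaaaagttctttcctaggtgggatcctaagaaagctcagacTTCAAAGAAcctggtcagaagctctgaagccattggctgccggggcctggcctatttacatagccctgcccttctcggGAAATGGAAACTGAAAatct
Oas3, chr5:120777662-120777909, minus strand: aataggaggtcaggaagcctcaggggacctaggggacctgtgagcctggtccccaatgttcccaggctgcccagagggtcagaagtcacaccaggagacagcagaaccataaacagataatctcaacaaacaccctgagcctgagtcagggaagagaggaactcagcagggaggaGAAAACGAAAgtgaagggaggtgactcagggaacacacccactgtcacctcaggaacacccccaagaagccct
Isg15, chr4:156200819-156201068, minus strand: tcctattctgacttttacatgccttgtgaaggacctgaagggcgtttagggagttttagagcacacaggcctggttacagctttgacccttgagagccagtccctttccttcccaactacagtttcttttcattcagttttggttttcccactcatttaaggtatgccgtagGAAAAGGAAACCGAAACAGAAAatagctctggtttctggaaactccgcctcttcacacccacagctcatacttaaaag
Ifit3, chr19:34583279-34583528, plus strand: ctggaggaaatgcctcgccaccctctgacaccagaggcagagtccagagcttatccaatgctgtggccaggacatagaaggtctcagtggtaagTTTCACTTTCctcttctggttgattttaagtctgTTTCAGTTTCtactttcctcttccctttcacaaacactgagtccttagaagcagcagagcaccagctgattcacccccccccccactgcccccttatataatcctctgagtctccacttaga
Gbp3, chr3:142559794-142560025, plus strand: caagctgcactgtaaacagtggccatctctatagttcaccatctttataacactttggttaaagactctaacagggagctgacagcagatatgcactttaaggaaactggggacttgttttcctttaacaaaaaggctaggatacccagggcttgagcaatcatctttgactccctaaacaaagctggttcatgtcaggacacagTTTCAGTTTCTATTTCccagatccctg
Igtp, chr11:58199306-58199555, plus strand: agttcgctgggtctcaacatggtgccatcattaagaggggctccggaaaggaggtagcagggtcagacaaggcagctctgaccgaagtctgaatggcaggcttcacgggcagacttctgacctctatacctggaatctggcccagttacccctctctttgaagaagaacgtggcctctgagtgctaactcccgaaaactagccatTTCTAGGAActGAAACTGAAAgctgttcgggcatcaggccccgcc

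In these stretches the Isg15 capitals are 3 overlapping ISRE matches, Oas1a and Gbp3 have 2 overlapping ISRE matches each, and Ifit3 has 2 separate ones. The matches of Gbp3 and Ifit3 are on the opposite strand. Oas1a and Igtp also have 1 GAS match each, which touches no ISRE match. An ISRE match stood in 17 of the 33 windows of the listed genes (51.5%), against 3.44% of all 32851 windows in the table. A GAS match stood in 8 of the 33 windows (24.2%), against 8.3% of all windows, and 5 genes had both. By role, an ISRE match was present in the windows of 2 of 2 sensors, 1 of 4 transcription factors (Stat2), 7 of 12 antiviral effectors, 6 of 7 GTPases and 1 of 4 class I genes (B2m). The matches of Ddx58, Ifih1 and Eif2ak2 lay after the gene start, and all other ISRE matches lay before it. Of the 17 genes with a window that were called in a diet comparison below, 8 had an ISRE match and 3 a GAS match, and of the 12 with a window that were not called, 9 and 5 had them. These matches are letters in a window and were not measured as bound sites.

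**Figure D1:**
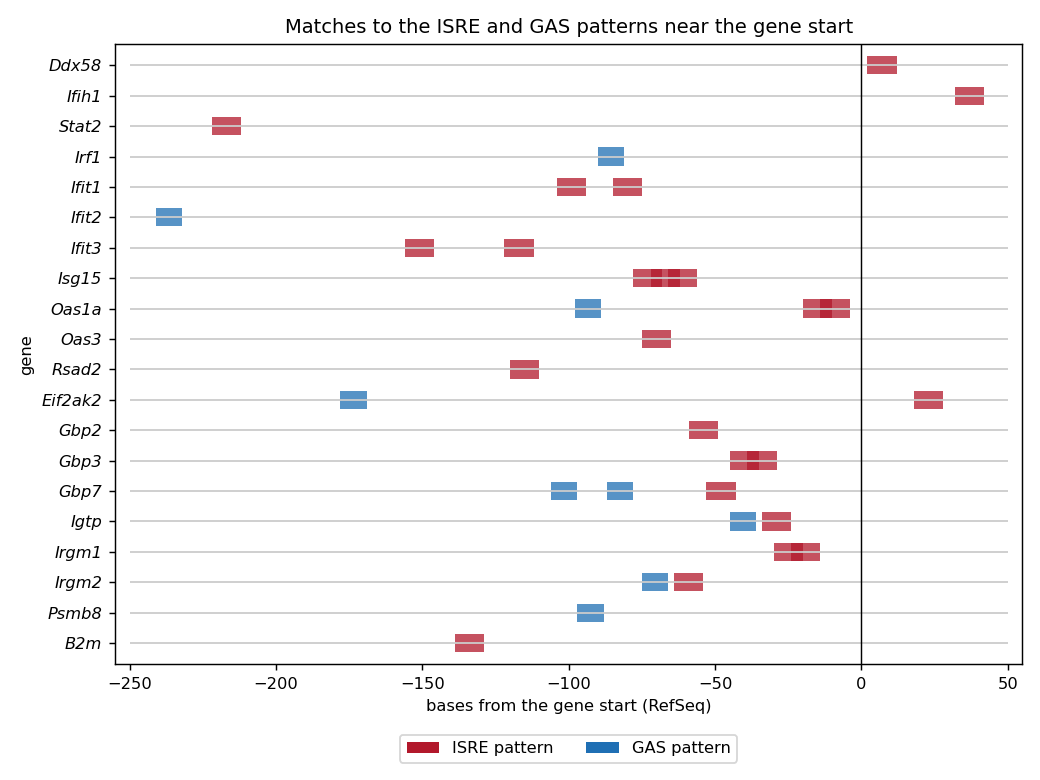
Position of each ISRE (red) and GAS (blue) match relative to the RefSeq gene start, in bases, for the 20 listed genes with at least 1 match (grey line, the searched window). The ISRE matches of Ddx58, Ifih1 and Eif2ak2 lie after the start, and that of Stat2 lies farthest before it, from -222.

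The libraries held 3704642 to 23131089 gene counts (median 10312311), so that 3 counts corresponded to 0.118 to 0.851 CPM (counts per 1e6 gene counts, with each library total scaled by its TMM factor), and genes near 1 CPM such as Oas3 and Oas1a rest on few counts. The 30 replicate pairs within diets all differed by more than the noise of sampling reads (7.33 to 65.0 for chi-square over its degrees of freedom), so no library was counted as a copy of another. Hepatocyte markers summed to 119620 to 163975 CPM in every library, as a tissue made mostly of hepatocytes has. In such bulk tissue, fewer cells of a type and less RNA per cell cannot be told apart. Sample names put the BD libraries in a separate run of numbers from the HFD and MCD libraries, and whether that marks another day or batch is not given, so such a batch and the base diet cannot be told apart. BD replicate 5 stood apart among the BD libraries: it was the highest of the 5 for 26 of the 37 genes, and it was the deepest BD library with the most non-unique alignments per gene count of all libraries (2.80). HFD replicate 2 stood apart in markers of macrophages, given below.

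The list spanned a wide range of expression. Per kilobase of exon, B2m, the light chain of class I molecules, averaged 2431 CPM in BD liver and the GTPase gene Iigp1 averaged 62.7 CPM. Irgm2, Igtp, Stat2, Irgm1 and Ifi47 followed at 12.6 to 20.4 CPM per kilobase. At the low end, Oas3 averaged 0.168 CPM per kilobase in BD liver, Ifi44 0.564, Oas1a 0.775, Oasl2 0.809, Xaf1 0.841 and Oas2 0.860. The genes lay on 14 chromosomes, with 7 on chromosome 11 (among them Igtp, Irgm1, Irgm2 and Ifi47), 6 on chromosome 5 (the 5 Oas and Oasl genes and Gbp6), 5 on chromosome 17 (Tap1, Tap2, Psmb8 and Psmb9 side by side, and Eif2ak2), 4 on chromosome 3 (Gbp2, Gbp3 and Gbp7 side by side, and Ifi44) and 3 on chromosome 19 (Ifit1, Ifit2 and Ifit3). Where related genes (Oas, Gbp, Ifit and Irgm) share sequence, they are known from reads with a unique position only. How much sequence they share was not measured. Igtp overlaps Irgm2 on the same strand, Irf9 overlaps Rnf31 on the same strand, Ifi47 overlaps Olfr56, Gbp6 overlaps Gm43302, and Tap1 and Psmb9, Irf7 and Phrf1, Irf1 and Gm17334, and B2m and Patl2 overlap on opposite strands, so the values of these genes are uncertain.

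On the high-fat diet, interferon-stimulated genes rose in part and none fell. Of the 37 genes, 15 rose in HFD over BD liver, against 3.65% of all tested genes called higher and 3.27% called lower, and 36 of 37 fold changes were positive. The genes that rose were oligoadenylate synthetase genes and their relatives (Oas1a, Oas2, Oas3, Oasl1, Oasl2), Ifit1, Ifit2 and Ifit3, Usp18, Irf7, the sensors Ddx58 and Dhx58, and the class I genes Tap1, Psmb8 and Psmb9. The median log2 fold change over the 37 genes was 0.42, against -0.01 over all tested genes, and the range ran from -0.31 (Irf1) to 1.34 (Oas3). All 5 HFD libraries lay above all 5 BD libraries for 6 genes (Oas1a, Oas2, Oas3, Oasl1, Tap1 and Psmb8), against 3.49% of all tested genes. Calls are at an adjusted p under 0.05 from edgeR's quasi-likelihood test with Benjamini-Hochberg adjustment over the 12193 genes, errors of fold changes are standard errors, and errors of CPM are SDs over n = 5. The count changed with single libraries: 7 genes rose without BD replicate 1, 9 without BD replicate 2, 6 without BD replicate 3, 8 without BD replicate 4, 8 without HFD replicate 2 and 7 without HFD replicate 4. Without BD replicate 5 the count was 20, against 4.11% of all tested genes called higher. Of the 15 calls, 4 (Oas1a, Oas2, Oas3 and Tap1) held in all 28 other fits.

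On the diet short of methionine, choline and folate, 17 of the 37 genes rose over BD liver and none fell, against 12.8% of all tested genes called higher and 8.64% called lower. The 17 were Oas1a, Oas2, Oas3, Oasl2, Ifit2, Ifit3, Isg15, Usp18, Xaf1, Ifi44, Gbp2, Gbp3, Zbp1, Irf7, Tap1, Psmb8 and Psmb9. The median log2 fold change was 0.40, against -0.03 over all tested genes, 32 of 37 fold changes were positive, and the range ran from -0.24 (Stat2) to 1.55 (Oas3). All 5 MCD libraries lay above all 5 BD libraries for 15 genes, against 9.32% of all tested genes. Both diets were compared with the same 5 BD libraries, so the HFD and MCD results are not independent of each other. Side by side, 11 genes were called in both, 4 in HFD (Ddx58, Dhx58, Ifit1 and Oasl1) and not in MCD, 6 in MCD (Zbp1, Isg15, Xaf1, Ifi44, Gbp2 and Gbp3) and not in HFD, and 16 in neither. Leaving out 1 library gave 15 (without BD replicate 3) to 20 (without BD replicate 5) genes. In those 2 fits 10.4% and 12.8% of all tested genes were called higher. Of the 17 calls, 14 (all but Irf7, Isg15 and Tap1) held in all 28 other fits.

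**Figure D2:**
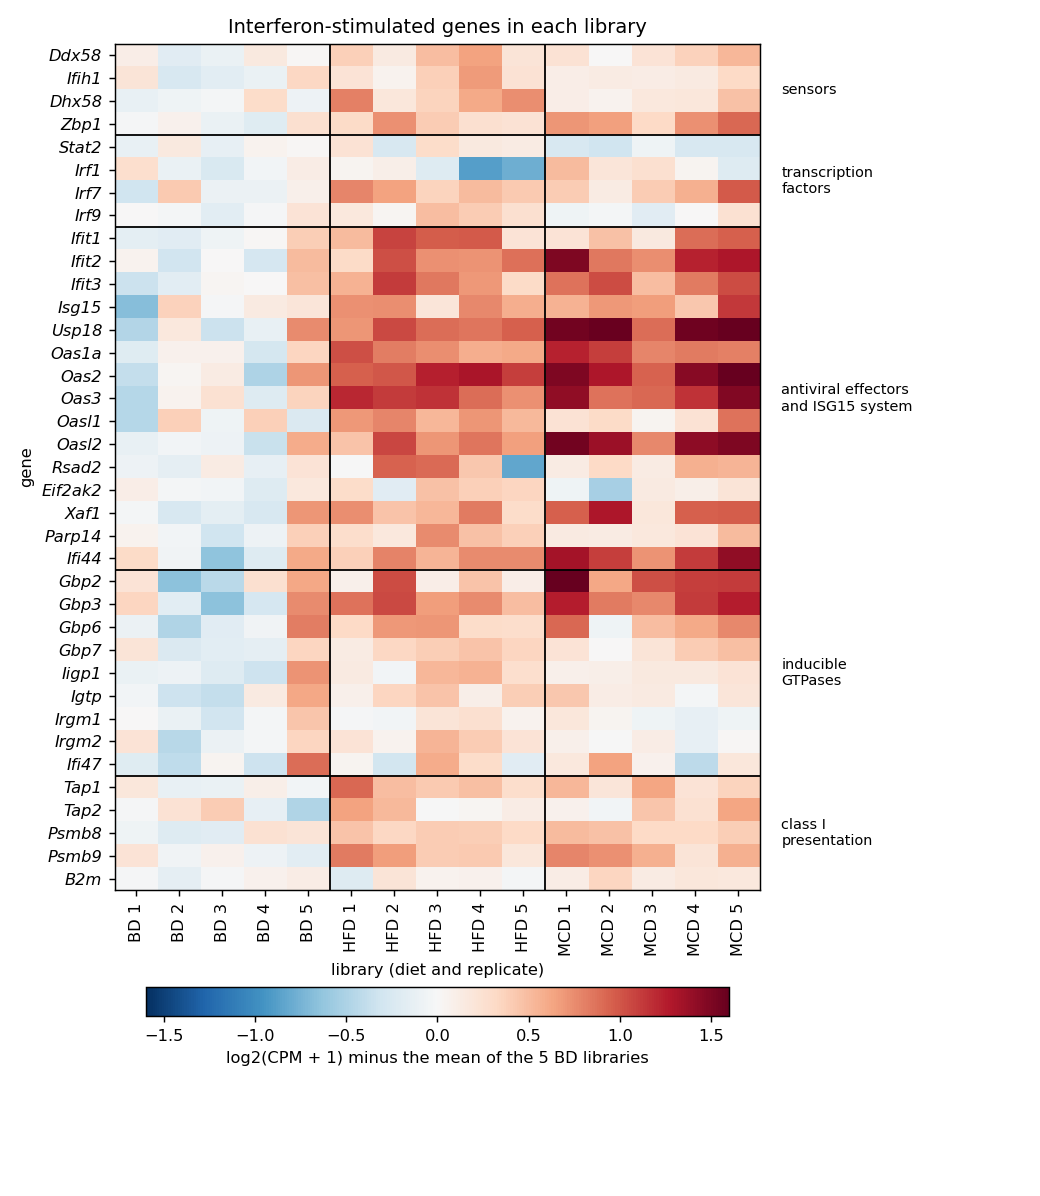
Each row is 1 of the 37 genes, grouped by role, each column 1 library, and the colour is log2(CPM + 1) minus the mean of the 5 BD libraries. The antiviral effectors are above the BD mean in most HFD and MCD libraries, with Rsad2 (HFD replicates 1 and 5) and Eif2ak2 (HFD replicate 2 and MCD replicates 1 and 2) below it, and BD replicate 5 is redder than the other BD libraries.

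**Figure D3:**
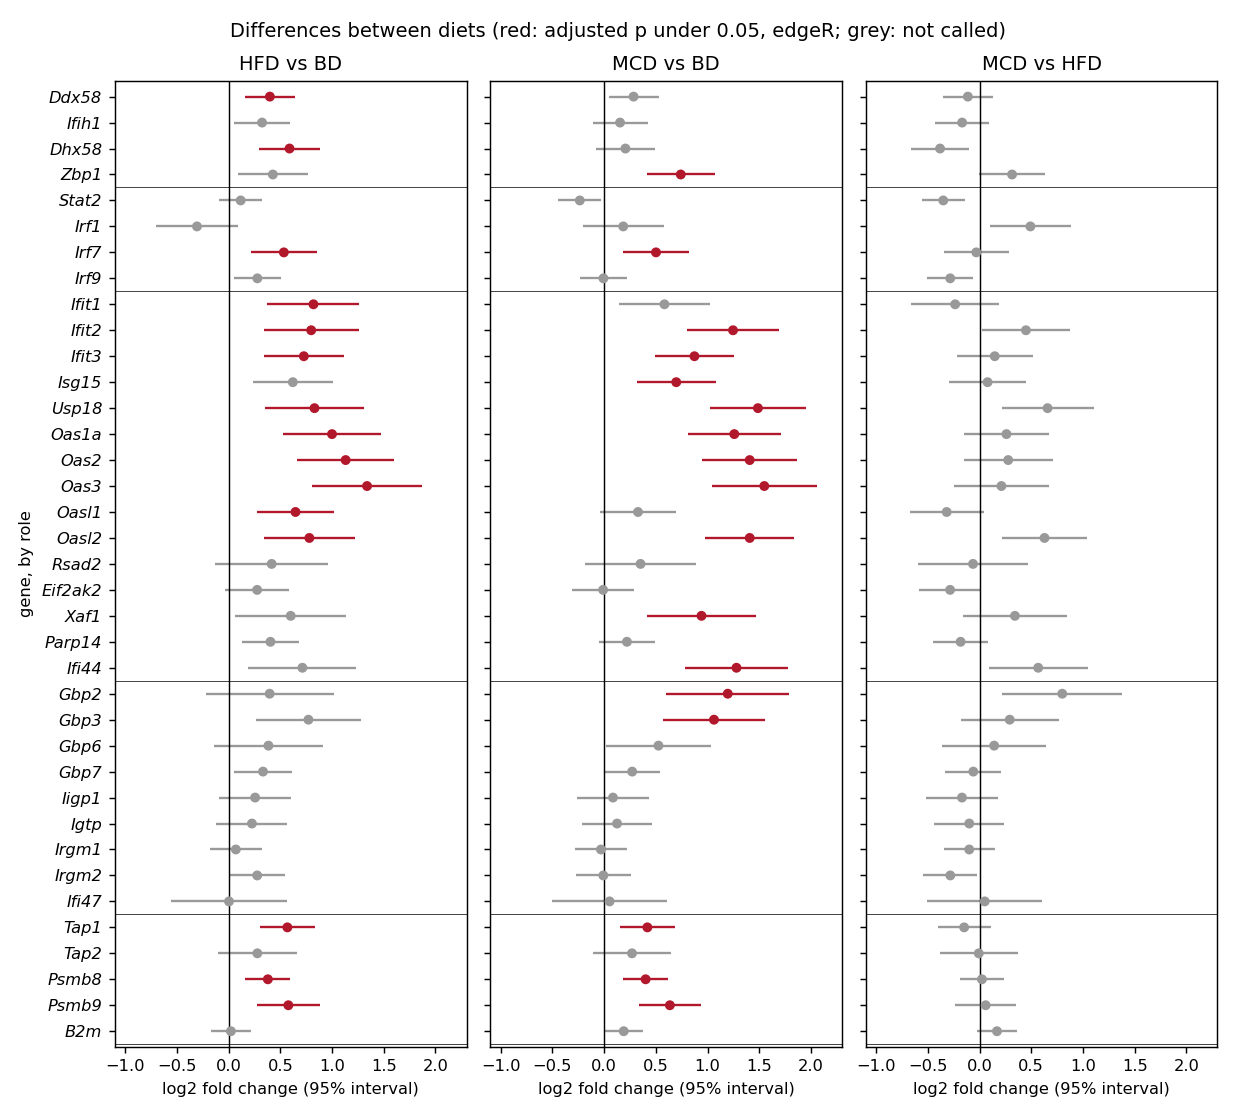
Log2 fold change with its 95% interval for each gene in the 3 comparisons (red, adjusted p under 0.05; grey, not called). Red points lie to the right of 0 in HFD against BD (15 genes) and MCD against BD (17 genes), and no point is red in MCD against HFD.

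The sensors detect foreign or misplaced nucleic acid in the cytoplasm. Ddx58 encodes the RNA helicase RIG-I, Ifih1 a related helicase that senses long double-stranded RNA, Dhx58 a helicase of the same family that tunes the others, and Zbp1 a sensor of left-handed nucleic acid that can trigger cell death. Dhx58 and Ddx58 rose in HFD liver, and Zbp1 rose in MCD liver, where 3.65% and 12.8% of all tested genes were called higher. Dhx58 stood at 11.6, 12.1, 12.5, 15.9 and 12.02 CPM in the BD libraries, at 22.9, 14.5, 16.6, 19.97 and 21.96 CPM in the HFD libraries and at 13.8, 13.3, 14.5, 14.6 and 17.96 CPM in the MCD libraries. HFD replicate 2 lay below BD replicate 4, and the other HFD libraries lay above all BD libraries, while the MCD libraries overlapped the BD libraries. The Dhx58 (chr11:100694884-100704271) log2 fold change was 0.59 ± 0.14 (adjusted p = 0.0129) in HFD and 0.21 ± 0.14 (adjusted p = 0.312) in MCD, and the HFD call was lost when all libraries were thinned to the shallowest (adjusted p = 0.0582). Ddx58 stood at 42.6, 34.7, 36.5, 44.2 and 39.8 CPM in the BD libraries, at 51.8, 43.8, 56.1, 62.2 and 45.8 CPM in the HFD libraries and at 46.2, 39.6, 45.9, 51.1 and 57.3 CPM in the MCD libraries. All HFD libraries except replicate 2 exceeded every BD library. Ddx58 (chr4:40203773-40239828) changed by 0.40 ± 0.12 (adjusted p = 0.0444) in HFD and gave 0.28 ± 0.12 (adjusted p = 0.0884) in MCD. Its HFD call was lost with limma-voom (adjusted p = 0.0515) and without any 1 of BD replicates 1, 2, 3 and 5, HFD replicates 1, 3 and 4 and MCD replicates 1 and 4 (adjusted p 0.0542 to 0.12). Zbp1 stood at 5.39, 5.77, 4.996, 4.69 and 6.74 CPM in the BD libraries, at 6.996, 9.71, 7.58, 6.75 and 6.602 CPM in the HFD libraries and at 9.55, 9.23, 7.096, 9.77 and 11.3 CPM in the MCD libraries. Every MCD library lay above every BD library, and of the HFD libraries replicate 5 lay just below BD replicate 5. Zbp1 (chr2:173206612-173218923) gave 0.74 ± 0.16 (adjusted p = 0.00234) in MCD and 0.43 ± 0.16 (adjusted p = 0.136) in HFD. Ifih1 was at 43.3 ± 7.98 (BD), 53.99 ± 9.41 (HFD) and 48.1 ± 3.15 CPM (MCD), and was not called in HFD (adjusted p = 0.153), but was without BD replicate 5 (adjusted p = 0.0446). Ddx58 was called in MCD with upper quartile factors (adjusted p = 0.0472), without factors (0.0143) and without MCD replicate 2 (0.0334).

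Among the transcription factors, Irf7, which drives the amplification of type I interferon production, was the 1 gene of 4 that rose. The shares of all tested genes called higher were 3.65% in HFD and 12.8% in MCD. Irf7 stood at 23.5, 39.9, 27.5, 27.6 and 31.3 CPM in the BD libraries, at 51.4, 46.5, 38.1, 42.2 and 39.7 CPM in the HFD libraries and at 39.5, 32.3, 39.3, 44.3 and 58.95 CPM in the MCD libraries. BD replicate 2 was the highest BD library and lay above HFD replicates 3 and 5 and above MCD replicates 1, 2 and 3, and the other BD libraries lay below every HFD and MCD library. The Irf7 (chr7:141262706-141266481) log2 fold change was 0.53 ± 0.15 (adjusted p = 0.0405) in HFD and 0.50 ± 0.15 (adjusted p = 0.0238) in MCD. The HFD call was lost without any 1 of BD replicates 1, 3, 4 and 5, HFD replicates 1, 2, 4 and 5 and MCD replicate 4 (adjusted p 0.0526 to 0.106), and the MCD call without any 1 of BD replicates 1, 3 and 4 and MCD replicate 5 (adjusted p 0.0554 to 0.0626) and when the rate of non-unique alignments entered as a covariate (0.131), an alternative chosen after seeing the data. Stat2 and Irf9, which encode parts of the complex that binds the ISRE, were not called in either diet. Stat2 averaged 103 ± 8.72 (BD), 111 ± 15.4 (HFD) and 87.1 ± 5.99 CPM (MCD), the lowest of the 3 diets, with a log2 fold change of -0.24 ± 0.10 (adjusted p = 0.0998) in MCD against BD. With HFD replicate 2 and MCD replicate 3 both left out, Stat2 was called lower in MCD than in BD liver (adjusted p = 0.0272). Irf9 averaged 40.6 ± 4.06, 49.4 ± 6.46 and 40.5 ± 4.68 CPM in the same order. Irf1, an early target of interferon gamma, had the lowest fold change of the list in HFD liver, -0.31 ± 0.19 (adjusted p = 0.41), with HFD replicates 4 and 5 at 19.97 and 21.4 CPM and the other 3 HFD libraries at 32.4 to 40.3 CPM.

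The 15 antiviral effectors and genes of the ISG15 system held most of the calls, with 9 called higher in HFD and 10 in MCD and median log2 fold changes of 0.73 and 0.94. Of all tested genes, 3.65% and 12.8% were called higher. Oas1a, Oas2 and Oas3 encode oligoadenylate synthetases, enzymes that answer double-stranded RNA by making a messenger that activates RNA cleavage. Oas2 stood at 2.55, 3.71, 4.05, 2.27 and 6.55 CPM in the BD libraries, at 7.92, 8.21, 9.94, 10.4 and 8.89 CPM in the HFD libraries and at 11.98, 10.3, 7.88, 11.6 and 13.2 CPM in the MCD libraries. Every HFD and MCD library lay above every BD library, and BD replicate 5 was the highest of the BD libraries. Oas2 (chr5:120730333-120749853) changed by 1.13 ± 0.22 (adjusted p = 0.00377) in HFD and 1.41 ± 0.22 (adjusted p = 0.000203) in MCD. Oas3 stood at 0.567, 1.24, 1.55, 0.852 and 1.74 CPM in the BD libraries, at 3.96, 3.68, 3.79, 2.99 and 2.56 CPM in the HFD libraries and at 4.75, 2.904, 3.07, 3.79 and 4.97 CPM in the MCD libraries. The groups did not overlap with BD in either diet, at levels that rest on 75 counts over the 5 BD libraries, 183 over HFD and 319 over MCD. Oas3 (chr5:120753098-120777661) had the highest fold change of the list in both diets, 1.34 ± 0.25 (adjusted p = 0.00265) in HFD and 1.55 ± 0.24 (adjusted p = 0.000225) in MCD. Oas1a followed with 1.46 ± 0.423 (BD), 3.14 ± 0.534 (HFD) and 3.75 ± 0.695 CPM (MCD), and log2 fold changes of 0.999 ± 0.22 (adjusted p = 0.00944) and 1.26 ± 0.22 (adjusted p = 0.00043).

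Oasl1 and Oasl2 are relatives of the synthetases, and Oasl1, which lacks their enzyme activity, restrains the translation of Irf7 mRNA. Oasl2 stood at 4.54, 4.85, 4.65, 3.69 and 8.06 CPM in the BD libraries, at 7.25, 11.6, 8.76, 9.84 and 8.49 CPM in the HFD libraries and at 16.5, 14.5, 9.22, 15.2 and 15.9 CPM in the MCD libraries. All MCD libraries lay above all BD libraries, MCD replicate 3 was well below the other MCD libraries, and BD replicate 5 lay above HFD replicate 1. Oasl2 (chr5:114896936-114912234) changed by 0.78 ± 0.21 (adjusted p = 0.0303) in HFD and 1.41 ± 0.21 (adjusted p = 0.000125) in MCD. The HFD call was lost with limma-voom (adjusted p = 0.0741), with thinning (adjusted p = 0.0759) and without any 1 of BD replicates 1, 2, 3 and 4 and HFD replicates 2 and 4 (adjusted p 0.0575 to 0.0841). Oasl1 rose in HFD from 12.4 ± 3.46 to 19.5 ± 1.59 CPM, by 0.65 ± 0.18 (adjusted p = 0.0322), with no overlap between the groups. It stood at 15.9 ± 4.08 CPM in MCD, 0.33 ± 0.18 (adjusted p = 0.201). The Oasl1 call in HFD was lost without any 1 of BD replicates 1, 3 and 5 and HFD replicates 1, 2 and 4 (adjusted p 0.0609 to 0.085).

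Isg15 encodes a ubiquitin-like modifier, and Usp18 the protease that removes it and that also damps signalling at the type I receptor. Usp18 stood at 4.82, 8.04, 5.34, 6.39 and 12.6 CPM in the BD libraries, at 12.1, 15.7, 13.97, 13.6 and 14.6 CPM in the HFD libraries and at 22.5, 23.1, 13.9, 22.6 and 28.3 CPM in the MCD libraries. MCD libraries lay above all BD and, but for replicate 3, above all HFD libraries, and BD replicate 5 lay above HFD replicate 1. Usp18 (chr6:121245906-121270917) changed by 0.83 ± 0.23 (adjusted p = 0.0325) in HFD and 1.49 ± 0.22 (adjusted p = 0.000171) in MCD. Its HFD call was lost with limma-voom (adjusted p = 0.0609) and without any 1 of BD replicates 1, 2, 3 and 4 and HFD replicates 2, 4 and 5 (adjusted p 0.0527 to 0.0923). Isg15 averaged 6.702 ± 1.87 (BD), 10.5 ± 1.72 (HFD) and 11.3 ± 2.42 CPM (MCD). It was called in MCD, 0.70 ± 0.18 (adjusted p = 0.0101), though not with thinned counts (adjusted p = 0.0645), and in HFD it fell just outside the threshold, 0.62 ± 0.19 (adjusted p = 0.0505), and inside it without any 1 of BD replicate 2, HFD replicate 3 and MCD replicate 5 (adjusted p 0.0315 to 0.0394), with DESeq2 (adjusted p = 0.0166), with limma-voom (0.0467), with RLE (0.0473), upper quartile (0.0449) or no factors (0.0375), and with the stricter filter (0.0497).

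The Ifit genes encode proteins that bind viral RNA lacking the host's cap marks. Ifit2 averaged 4.42 ± 1.31 (BD), 7.93 ± 1.57 (HFD) and 10.7 ± 2.52 CPM (MCD), with log2 fold changes of 0.80 ± 0.22 (adjusted p = 0.0326) and 1.25 ± 0.21 (adjusted p = 0.00043). Ifit3 went from 7.23 ± 1.84 to 12.4 ± 2.82 and 13.8 ± 2.18 CPM, with 0.73 ± 0.19 (adjusted p = 0.0213) and 0.87 ± 0.18 (adjusted p = 0.00193). Ifit1 was called in HFD, 0.82 ± 0.21 (adjusted p = 0.0234), from 7.81 ± 1.52 to 14.1 ± 3.59 CPM. At 12.02 ± 3.38 CPM in MCD it just missed the threshold, 0.58 ± 0.21 (adjusted p = 0.055), and passed it with DESeq2 (adjusted p = 0.0384), with upper quartile factors (0.0395), without factors (0.0182), without a count filter (0.0482), with only BD and MCD in the fit (0.0438), with thinned counts (0.0316) and without any 1 of BD replicate 5, HFD replicates 1, 2 and 5 and MCD replicates 1 and 3 (adjusted p 0.0237 to 0.0487). The HFD calls of this family depended on single libraries. Ifit1 was lost without any 1 of BD replicates 1, 2, 3 and 4 and HFD replicates 2 and 4 (adjusted p 0.0521 to 0.0651) and with limma-voom (0.0531), Ifit2 without any 1 of BD replicates 1, 2, 3 and 4 and HFD replicates 2, 4 and 5 (adjusted p 0.0533 to 0.0879), with limma-voom (0.0821) and with thinning (0.127), and Ifit3 without any 1 of BD replicates 2, 3 and 4 and HFD replicate 2 (adjusted p 0.0514 to 0.061).

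The other 5 effectors were mixed. Ifi44, an interferon-induced cytoplasmic protein, and Xaf1, a binding partner of an inhibitor of apoptosis, rose in MCD. Ifi44 went from 3.46 ± 1.47 CPM in BD to 8.54 ± 1.701 in MCD, 1.28 ± 0.24 (adjusted p = 0.000892), and stood at 5.72 ± 0.805 CPM in HFD, 0.71 ± 0.25 (adjusted p = 0.0983). Xaf1 went from 3.94 ± 1.62 to 7.997 ± 2.25 CPM in MCD, 0.94 ± 0.25 (adjusted p = 0.0108), and stood at 6.17 ± 1.08 in HFD, 0.60 ± 0.26 (adjusted p = 0.191). Both were called in HFD without BD replicate 5 (adjusted p = 0.00918 for Ifi44 and 0.0162 for Xaf1). Rsad2, which makes a chain-terminating nucleotide against viral polymerases, had a wide spread in HFD, from 5.79 CPM in replicate 5 to 22.3 CPM in replicate 2, and was not called in HFD, 0.42 ± 0.26 (adjusted p = 0.413), or MCD, 0.35 ± 0.25 (adjusted p = 0.356). Eif2ak2, the kinase PKR that stops translation on sensing double-stranded RNA, gave 0.28 ± 0.15 (adjusted p = 0.313) in HFD and -0.01 ± 0.14 (adjusted p = 0.973) in MCD. Parp14, an enzyme that adds ADP-ribose, was at 47.1 ± 8.797 CPM in BD and 62.8 ± 10.2 in HFD, 0.40 ± 0.13 (adjusted p = 0.07), and was called there with DESeq2 (adjusted p = 0.0484), without factors (0.0364), with thinned counts (0.0441) and without any 1 of BD replicate 5, HFD replicate 2 and MCD replicate 5 (adjusted p 0.0119 to 0.0482).

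**Figure D4:**
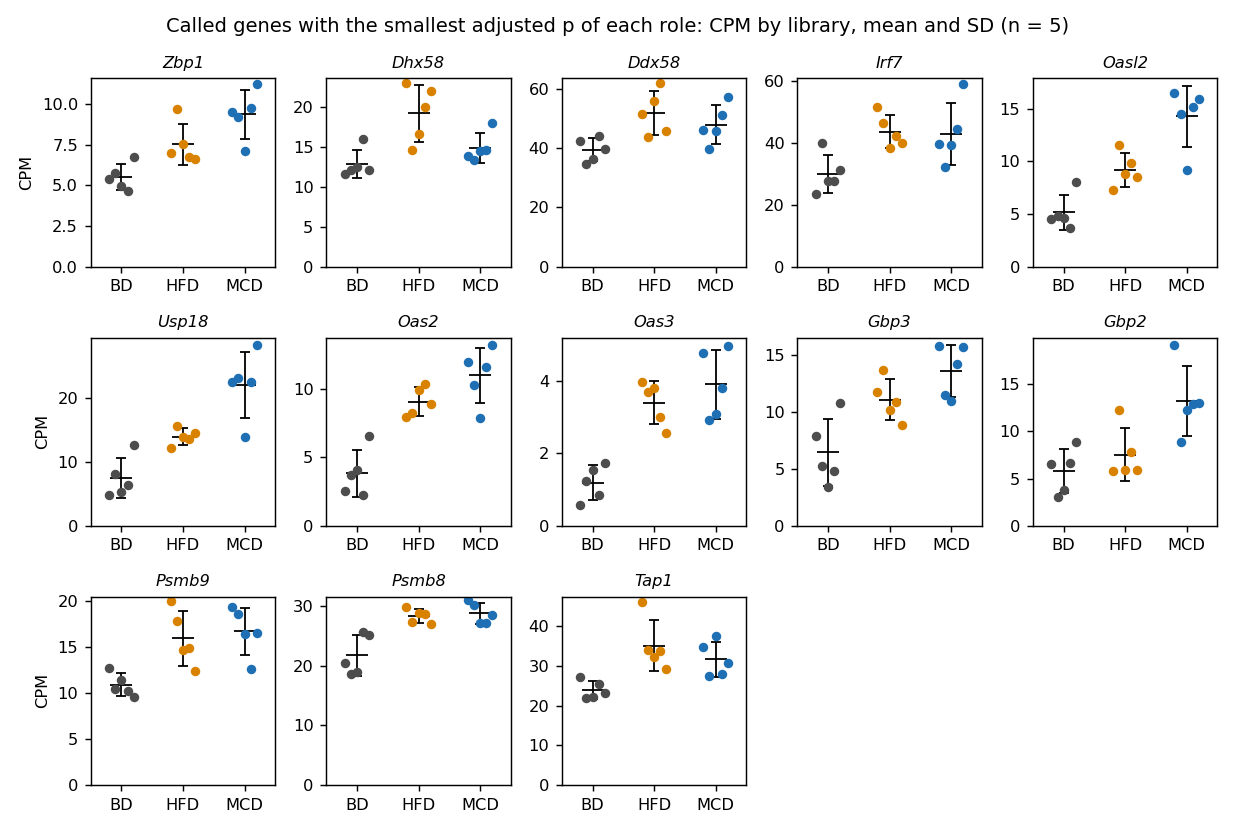
CPM of the called genes with the smallest adjusted p of each role (up to 4 per role) in the 5 libraries of each diet, with the mean and SD as bars, and every axis starting at 0. Oas2, Oas3, Psmb8 and Tap1 show no overlap of BD with HFD or MCD, and the highest BD library of Usp18, Oasl2 and Gbp3 is replicate 5.

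Of the 9 interferon-inducible GTPases, none was called in HFD and 2 rose in MCD (Gbp2 and Gbp3), where 3.65% and 12.8% of all tested genes were called higher. These proteins assemble on membranes that enclose microbes, and many of them answer interferon gamma more than type I interferon. With edgeR 3 of the 9 were higher in HFD at an unadjusted p under 0.05, a threshold at which all tested genes were not counted. With DESeq2 Gbp3 was called in HFD (adjusted p = 0.0231). Gbp3 stood at 7.94, 5.26, 3.45, 4.83 and 10.8 CPM in the BD libraries, at 11.8, 13.7, 10.2, 10.9 and 8.89 CPM in the HFD libraries and at 15.8, 11.5, 10.95, 14.3 and 15.7 CPM in the MCD libraries. All MCD libraries lay above all BD libraries, and BD replicate 5 lay above HFD replicates 3 and 5. Gbp3 (chr3:142560026-142573209) changed by 1.06 ± 0.24 (adjusted p = 0.00335) in MCD and gave 0.77 ± 0.24 (adjusted p = 0.0631) in HFD, where it was called without BD replicate 5 (adjusted p = 0.00213). Gbp2 stood at 6.52, 3.09, 3.79, 6.68 and 8.86 CPM in the BD libraries, at 5.82, 12.3, 5.92, 7.82 and 5.93 CPM in the HFD libraries and at 19.1, 8.92, 12.2, 12.9 and 12.99 CPM in the MCD libraries. The lowest MCD library, replicate 2, lay barely above the highest BD library, replicate 5, and 4 of 5 HFD libraries lay within the BD range. Gbp2 (chr3:142620602-142638008) changed by 1.195 ± 0.28 (adjusted p = 0.00566) in MCD and gave 0.40 ± 0.29 (adjusted p = 0.509) in HFD. The other 7 GTPases ran from 0.00 (Ifi47) to 0.38 (Gbp6) on the log2 scale in HFD and from -0.03 (Irgm1) to 0.53 (Gbp6) in MCD. BD replicate 5 was the highest BD library for each of the 9 GTPases, with Iigp1 at 582 CPM against 280.1 to 333 CPM in the other BD libraries and Gbp6 at 12.6 against 4.54 to 6.39. Without it, Gbp3, Gbp6, Gbp7 and Iigp1 were called higher in HFD (adjusted p = 0.00213, 0.0316, 0.0360 and 0.0119), and Gbp6 and Gbp7 in MCD (0.00403 and 0.0326). Gbp6 was also called in MCD with thinned counts (adjusted p = 0.0107), and Gbp7 without factors (0.0314).

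The class I genes form the route by which cytoplasmic peptides reach the cell surface. Psmb8 and Psmb9 are inducible catalytic subunits of the immunoproteasome, Tap1 and Tap2 the subunits of the peptide transporter, and B2m the constant light chain. Tap1, Psmb8 and Psmb9 rose in both diets by 0.38 to 0.64 on the log2 scale, and Tap2 and B2m were not called. Over all tested genes, 3.65% were called higher in HFD and 12.8% in MCD. Psmb9 stood at 12.8, 10.4, 11.5, 10.2 and 9.57 CPM in the BD libraries, at 19.98, 17.8, 14.7, 14.9 and 12.4 CPM in the HFD libraries and at 19.3, 18.6, 16.5, 12.6 and 16.5 CPM in the MCD libraries. BD replicate 1 lay above HFD replicate 5 and MCD replicate 4, and no other libraries overlapped with BD. Psmb9 (chr17:34181987-34187764) changed by 0.58 ± 0.15 (adjusted p = 0.0208) in HFD and 0.64 ± 0.14 (adjusted p = 0.0036) in MCD. Psmb8 stood at 20.4, 18.6, 18.95, 25.7 and 25.1 CPM in the BD libraries, at 29.8, 27.4, 28.9, 28.6 and 27.1 CPM in the HFD libraries and at 30.96, 30.2, 27.2, 27.2 and 28.5 CPM in the MCD libraries. The HFD and MCD libraries all lay above the BD libraries, which fell into a lower set of 3 and replicates 4 and 5. Psmb8 (chr17:34197721-34201454) changed by 0.38 ± 0.10 (adjusted p = 0.032) in HFD and 0.40 ± 0.10 (adjusted p = 0.00843) in MCD. Tap1 stood at 27.2, 21.9, 22.1, 25.6 and 23.1 CPM in the BD libraries, at 46.3, 34.1, 32.2, 33.8 and 29.4 CPM in the HFD libraries and at 34.9, 27.6, 37.6, 27.9 and 30.7 CPM in the MCD libraries. No BD library reached any HFD or MCD library, HFD replicate 1 was the highest, and MCD replicates 2 and 4 lay just above BD replicate 1. Tap1 (chr17:34187553-34197225) changed by 0.57 ± 0.13 (adjusted p = 0.00892) in HFD and 0.42 ± 0.13 (adjusted p = 0.0226) in MCD.

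The Tap1 call in MCD was lost without any 1 of BD replicates 2 and 3 and MCD replicates 1 and 3 (adjusted p 0.0527 to 0.06) and with that alignment covariate (0.0925), and the HFD calls of Psmb8 and Psmb9 without any 1 of BD replicates 1, 2 and 3 and HFD replicates 1 and 4 (adjusted p 0.055 to 0.0992) and without any 1 of BD replicate 4 and HFD replicates 1 and 2 (adjusted p 0.0519 to 0.0628). With thinned counts neither was called in HFD (adjusted p = 0.0644 and 0.0922), and Psmb8 was not with only BD and HFD in the fit (0.0589). Tap2 averaged 21.2 ± 5.07, 25.5 ± 5.66 and 25.5 ± 5.12 CPM in BD, HFD and MCD, with log2 fold changes of 0.28 ± 0.18 (adjusted p = 0.447) and 0.27 ± 0.18 (adjusted p = 0.317). B2m averaged 2091 ± 142, 2122 ± 217 and 2384 ± 159 CPM. All 5 MCD libraries lay above all 5 BD libraries for B2m, and the fold change was 0.19 ± 0.09 (adjusted p = 0.153), which passed the threshold in 1 of the 28 other fits, with library totals in place of TMM factors (adjusted p = 0.00867).

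No interferon-stimulated gene was called in either direction between MCD and HFD liver, against 2.22% of all tested genes called higher and 0.927% called lower. At an unadjusted p under 0.05, edgeR gave 6 of the 37 higher and 4 lower. The share of all tested genes at that unadjusted threshold was not counted. After adjustment limma-voom called 0 of the 37 genes, and DESeq2 called 1, Stat2, lower in MCD (adjusted p = 0.0237). The median log2 difference was 0.02 over the 37 genes, against -0.0032 over all tested genes, and 19 of 37 were positive. The intervals bound the difference for each gene. For Psmb8 the 95% interval of the MCD minus HFD log2 difference was -0.19 to 0.23, for Psmb9 -0.23 to 0.35, for Tap1 -0.41 to 0.11, for Irf7 -0.35 to 0.28, and for the less precise Oas3 -0.25 to 0.67. The highest differences were those of Gbp2, 0.80 ± 0.27 (adjusted p = 0.116), Usp18, 0.66 ± 0.21 (adjusted p = 0.0957), and Oasl2, 0.63 ± 0.20 (adjusted p = 0.0846), and the lowest those of Dhx58, -0.38 ± 0.13 (adjusted p = 0.119), and Stat2, -0.35 ± 0.10 (adjusted p = 0.0575).

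These calls changed when single libraries were left out. Without HFD replicate 2, Gbp2, Oasl2 and Irf1 were called higher in MCD than in HFD (adjusted p = 0.0185, 0.0275 and 0.0444), and Dhx58 and Stat2 lower (0.0341 and 0.00571). In that fit 6.80% of all tested genes were called higher (839 genes), and 409 genes were called lower. Without BD replicate 5, or without MCD replicate 3, Usp18 and Oasl2 were called higher in MCD (adjusted p = 0.0323 and 0.0298 for Usp18, 0.0404 and 0.0269 for Oasl2), and Stat2 was called lower without MCD replicate 3 (adjusted p = 0.0430). Of all tested genes, 2.70% were called higher without BD replicate 5 and 3.18% without MCD replicate 3, and 145 and 149 genes were called lower. The mean order of the diets was BD, HFD, MCD from lowest to highest for 19 genes, BD, MCD, HFD for 12, MCD, BD, HFD for 5 and HFD, BD, MCD for 1, and the gap between HFD and MCD was not called for any of them in the fit of all 15 libraries.

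A mean over the 37 genes of log2 CPM, set to 0 at the BD mean, placed the libraries in a similar way. BD replicates 1 to 4 lay between -0.13 and -0.07, and BD replicate 5 at 0.37, inside the HFD range of 0.36 to 0.58. The MCD libraries lay at 0.43 to 0.77, lowest in replicate 3 and highest in replicate 5. For the antiviral effectors alone BD replicate 5 was at 0.49, below all HFD libraries (0.59 to 0.93) and all MCD libraries (0.62 to 1.23). For the GTPases it was at 0.65, above every HFD (0.23 to 0.49) and every MCD library (0.28 to 0.60). For the class I genes it was the lowest BD library at -0.08, with HFD at 0.18 to 0.55 and MCD at 0.24 to 0.44. By this mean, the BD library that was highest for effectors and GTPases was thus not the highest for the class I genes. For B2m alone BD replicate 5 was the highest BD library, at 2260 CPM against 1886 to 2184 CPM in the others.

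Markers of immune cells were followed in the same libraries. Macrophage markers summed to 192.9 to 310.8 CPM in BD, 276.2 to 513.6 in HFD and 384.7 to 620.7 in MCD libraries, with 3 of 12 markers called higher in HFD and 12 of 12 in MCD. Kupffer cell markers summed to 167.3 to 310.6, 259.9 to 356.4 and 287.8 to 458.1 CPM, with 1 of 6 and 5 of 6 called higher, and general leukocyte markers had 2 of 8 and 7 of 8. The shares over all tested genes were 3.65% in HFD and 12.8% in MCD. BD replicate 5 had the highest sum of both macrophage and Kupffer markers among the BD libraries (310.8 and 310.6 CPM, against 216.0 and 223.0 CPM at most in the others). HFD replicate 2 held 513.6 CPM of macrophage markers against 345.0 CPM at most in the other HFD libraries. Of this sum, Spp1, also listed as a biliary marker, gave 181.6 CPM, against 51.4 to 78.3 CPM in the other HFD libraries. The mean over the 37 genes in HFD replicate 2, 0.58, lay within the range of the others, 0.36 to 0.58. For the antiviral effectors alone this library was the highest of HFD, at 0.93 against 0.59 to 0.87. It was the highest HFD library for 13 of the 37 genes and the lowest for 11. Between MCD and HFD liver 4 of 12 macrophage markers and none of the 37 genes were called higher, against 2.22% of all tested genes. The part of these cells in the interferon-stimulated genes was not tested.

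**Figure D5:**
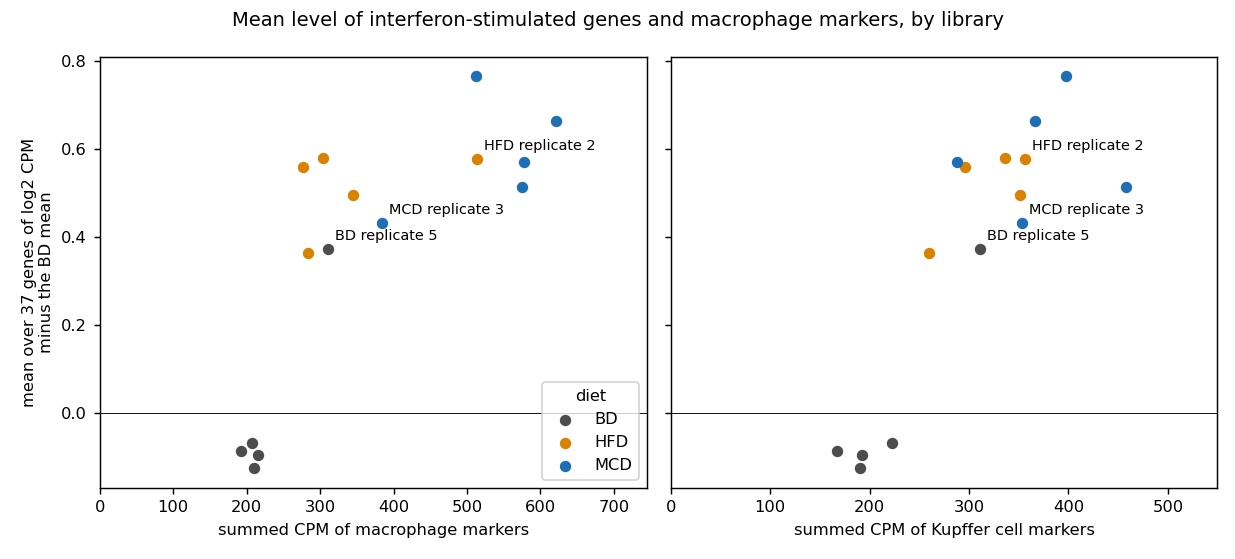
Each point is 1 library, with the mean over the 37 genes of log2 CPM minus the BD mean on the y axis and the summed CPM of macrophage (left) or Kupffer cell markers (right) on the x axis. BD replicate 5 sits at 0.37 and about 311 CPM of macrophage markers, among HFD libraries, and HFD replicate 2 sits at 0.58 with 513.6 CPM.

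Markers of other cell types were mixed. Siglech marks plasmacytoid dendritic cells, a main source of type I interferon in infection. Its summed counts were 28 for BD, 35 for HFD and 92 for MCD, too low to test, and 1 of the 6 markers of that list could be tested (Bst2, itself interferon-induced, not called). Summed counts given for these markers are not scaled for depth. Of the T and NK cell markers, 2 of 15 could be tested, and 1 of them, Cd4, was lower in MCD than in BD (-1.39 ± 0.33, adjusted p = 0.00482) and than in HFD (-1.31 ± 0.33, adjusted p = 0.0371), at summed counts of 189, 174 and 95 in the same order. Cd3e, which could not be tested, had summed counts of 17, 25 and 73, and no neutrophil marker could be tested. Stellate cell markers, which rise as the liver scars, were called higher for 0 of 9 in HFD and 7 of 9 in MCD, and endothelial markers for 0 of 9 and 3 of 9. Among all tested genes 3.65% and 12.8% were called higher. Hepatocyte markers were called lower for 2 of 9 in HFD and 3 of 9 in MCD, against 3.27% and 8.64% of all tested genes. Their log2 fold changes were uneven, from -2.02 to 0.20 in HFD and from -1.56 to 0.01 in MCD, with medians of -0.21 and -0.37. The part of these cells in the result was likewise not tested.

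The signals above the 37 genes were sparse in the counts. Of 17 interferon genes, 15 had no count in any library, Ifnb1 had 1 count in the whole series, and Ifng had 4 on BD, 1 on HFD and 8 on MCD. These counts are not scaled for depth. A count of 0 in a library allows up to 3 counts, or 0.118 to 0.851 CPM. Of 11 genes for receptors and the signalling below them, 10 could be tested. Ifngr2, a chain of the interferon gamma receptor, rose in HFD (0.64 ± 0.10, adjusted p = 0.000613) and MCD (0.66 ± 0.10, adjusted p = 0.000204). In MCD, Ifngr1 (0.60 ± 0.11, adjusted p = 0.000577) and Il10rb (0.75 ± 0.15, adjusted p = 0.00168) also rose, and Ifnar2, a chain of the type I receptor, fell (-0.26 ± 0.08, adjusted p = 0.0279). None of the 7 tested inhibitors was called by edgeR in any comparison, with 1 higher at an unadjusted p under 0.05 in each diet against BD. The share of all tested genes at that unadjusted threshold was not counted. The inhibitors include Socs3, a brake on JAK kinases, which was at 56.3 CPM in HFD replicate 1 and at 4.45 to 9.81 CPM in the other 4 HFD libraries, against 3.63 to 6.202 CPM in BD.

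Of 20 genes for upstream sensing and induction, 3 rose in HFD (Tlr3, Tlr7 and Mnda) and 8 rose in MCD, while Irf3, a factor that starts interferon transcription, fell there (-0.40 ± 0.13, adjusted p = 0.037). The shares over all tested genes were 3.65% higher in HFD, and 12.8% higher and 8.64% lower in MCD. Tlr7, an endosomal sensor of single-stranded RNA, rose in both (1.03 ± 0.29, adjusted p = 0.0332 and 1.46 ± 0.27, adjusted p = 0.000861), and Mnda, an interferon-inducible nuclear protein of myeloid cells, did too (1.45 ± 0.41, adjusted p = 0.0369 and 2.13 ± 0.37, adjusted p = 0.000488). In MCD the DNA sensors Ifi204 (1.03 ± 0.18, adjusted p = 0.000548) and Aim2 (1.14 ± 0.25, adjusted p = 0.00321) also rose. Mavs, the mitochondrial adaptor of RIG-I, was lower in MCD than in HFD (-0.38 ± 0.10, adjusted p = 0.0386).

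A further list of interferon-induced genes shares no gene with the 37. Of 54 tested, 10 rose and 2 fell in HFD (Ifitm2 and Apol9b), against 3.65% and 3.27% of all tested genes, and 26 rose and 2 fell in MCD, against 12.8% and 8.64%. In HFD these included Dtx3l, a ubiquitin ligase (0.68 ± 0.11, adjusted p = 0.000386), Samd9l (0.90 ± 0.15, adjusted p = 0.000949) and Lgals3bp (0.63 ± 0.11, adjusted p = 0.000999), and Ifitm2 fell (-0.62 ± 0.13, adjusted p = 0.00524). In MCD, Lgals3bp (0.82 ± 0.11, adjusted p = 4.79e-05), Samd9l (1.14 ± 0.15, adjusted p = 5.95e-05), Epsti1 (1.52 ± 0.26, adjusted p = 0.000469) and Slfn5 (0.77 ± 0.14, adjusted p = 0.000526) had the smallest adjusted p. Between MCD and HFD liver, Ly6e (0.55 ± 0.13, adjusted p = 0.0289), the T cell attractant Cxcl10 (1.44 ± 0.35, adjusted p = 0.0371) and Apol9b (0.52 ± 0.14, adjusted p = 0.0418) were higher in MCD, and Dtx3l was lower (-0.39 ± 0.10, adjusted p = 0.0443). Of 10 further GTPases none was called in HFD by edgeR, with 3 higher at an unadjusted p under 0.05, and Gbp9 was called in MCD (0.57 ± 0.20, adjusted p = 0.0488). Of 16 class I molecules and other presentation genes, none was called in HFD, with 1 lower at an unadjusted p under 0.05, and 5 rose in MCD. For neither list was the share of all tested genes at the unadjusted threshold counted. Those 5 were the heavy chain genes H2-D1 (0.62 ± 0.12, adjusted p = 0.00121), H2-M3 (1.03 ± 0.22, adjusted p = 0.00203), H2-T22 (0.91 ± 0.27, adjusted p = 0.0193) and H2-K1 (0.35 ± 0.11, adjusted p = 0.0297), and H2-Q4. H2-M3 was also higher in MCD than in HFD (0.82 ± 0.21, adjusted p = 0.0413).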

How the data were processed

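The authors deposited a table of read counts per gene symbol for each library, not normalized. Per the submitters' processing notes, the authors used Trimmomatic, TopHat2 (2.0.13), HTSeq and DESeq2 with GRCm38/mm10, and per the labels the library kit keeps strand. No source used here states the annotation, the strand setting or how reads over several genes were counted. The 5 rows that close each table and name no gene entered no library size and no test. Of uniquely placed reads, those outside genes were 12.7% to 17.0% and ambiguous reads 0.567% to 0.841%.

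Counts were tested in R 4.3.3 with edgeR 4.0.16: TMM factors, filterByExpr (minimum count 10, minimum total 15), and 1 robust quasi-likelihood fit over the 15 libraries with a two-sided F test per pair of diets. The threshold for a call was 0.05 on p-values adjusted by Benjamini-Hochberg over 12193 genes. SEs were taken as the absolute log2 fold change over the root of F. The common biological coefficient of variation was 0.176. The script was tested on simulated counts. DESeq2 1.42.0, limma-voom (limma 3.58.1), other factors, filters, thinning and left-out libraries were alternatives. Positions are from GENCODE on GRCm38 and promoter windows from RefSeq on GRCm38.p6.

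Replicates were numbered in order of deposit. The 37 genes and all lists were chosen with earlier results of these data known. All 37 are named; values in every library are given for up to 4 called genes per role, smallest adjusted p first, and up to 4 called genes are named per pathway list. The result of 1 gene of a pathway list is not reported here.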

Additional observations from a re-analysis of the deposited data

Results flagged for a closer look

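In each diet the highest or lowest of the 5 libraries was set against the others for each of the 37 genes, and 14 of 111 groups had an end library whose gap exceeded 0.71 of the range (Dixon's 95% value), where chance gives about 1 in 20. The genes were read in the same libraries, so these groups are not independent of each other, and the excess over that rate was not tested. The values below are CPM.

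BD replicate 5 was the high library in 5 of the 14: Oasl2 at 8.06 (others 3.69 to 4.85), Xaf1 at 6.79 (2.98 to 3.69), Gbp6 at 12.6 (4.54 to 6.39), Iigp1 at 582 (280.1 to 333) and Ifi47 at 55.1 (21.8 to 30.2). Without this library Xaf1, Gbp6 and Iigp1 passed the test in HFD against BD, which they did not with it. Its summed macrophage markers were at 311 CPM (192.9 to 216 in the other BD libraries) and its Kupffer cell markers at 311 CPM (167 to 223), and their part in these values was not tested. MCD replicate 5 was high in 4: Ifih1 at 53.7 (45.9 to 47.5), Dhx58 at 17.96 (13.3 to 14.6), Oasl1 at 22.9 (12.5 to 15.2) and Parp14 at 66.4 (51.03 to 54.2). MCD replicate 3 was the highest MCD library for Stat2, at 97.4 (81.7 to 85.7), and the lowest for Oasl2, at 9.22 (14.5 to 16.5). In BD, replicate 4 was high for Dhx58 at 15.9 (11.6 to 12.5). In HFD, replicate 1 was high for Tap1 at 46.3 (29.4 to 34.1), and in MCD replicate 2 was high for B2m at 2660 (2268 to 2365).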

How the results depend on the processing

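No paired analysis was made because the labels name no pairing between libraries of different diets. No listed gene changed direction across the fits of a comparison in which at least 1 fit called it; the direction of the others was not followed. Of the listed genes, 15 rose in HFD against BD, and leaving out 1 library gave 6 to 20, limma-voom 11 and thinned counts 11. Of all genes, 844 were called there, 569 to 974 with 1 library left out, 772 by limma-voom and 716 with thinned counts. Without HFD replicate 2 and MCD replicate 3 together, 7 listed genes rose in HFD (636 of all genes called), and in MCD against BD 1 listed gene (Stat2) was then lower. In MCD against BD, leaving out 1 library gave 15 to 20 listed genes higher, with 1938 to 2805 of all genes called. In MCD against HFD, 384 of all genes were called, 74 (without HFD replicate 4) to 1248 (without HFD replicate 2) with 1 library left out, 717 by DESeq2, 224 with only those diets in the fit, 182 with thinned counts and 1365 without HFD replicate 2 and MCD replicate 3. Listed genes higher there were 0 to 3, and lower 0 to 2, with 1 library left out. Without HFD replicate 2 and MCD replicate 3 they were 4 and 2, and DESeq2 gave 1 lower. For alternatives chosen after seeing the data, a covariate for non-unique alignments gave 82 genes in MCD against HFD, and leaving out BD replicate 5 and HFD replicate 2 gave 1380, with 3 listed genes higher and 3 lower. The cause of these moves was not tested. Without TMM factors the all-gene median in MCD against BD moved from -0.03 to 0.12, that of the listed genes to 0.54, and the split of calls from 1557 higher and 1053 lower to 2304 and 513 (in HFD, from 445 and 399 to 588 and 297). Thinning every library to the depth of the shallowest lost the HFD calls of Dhx58, Ifit2, Oasl2, Psmb8 and Psmb9 and the MCD call of Isg15, while Oas3 and Oas1a, with the fewest counts over the BD libraries (75 and 88), stayed called in both diets.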

Other observations

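The 37 genes together took 0.287% to 0.361% of the gene counts in BD libraries, 0.324% to 0.379% in HFD libraries and 0.375% to 0.408% in MCD libraries, and B2m supplied most of these counts (112822 over the BD, 116613 over the HFD and 188549 over the MCD libraries). These sums are not scaled for depth, and B2m averaged 2091, 2122 and 2384 CPM in the same order.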
